A study of Mus musculus with 15 samples.

Results

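The 10 named components of the Wnt pathway were followed across Smarcd1 overexpression and knockdown in mouse mammary cancer cells: the ligand Wnt9a, the receptor Fzd7, the co-receptors Lrp5 and Lrp6, the destruction complex genes Axin1, Axin2, Apc and Gsk3b, the transducer Ctnnb1 and the DNA-binding factor Tcf7l2. A component was taken where its Ensembl identifier stood in the deposited gene tables. This held for 9 of the 10 in both tables, among 13501 genes measured in the overexpression experiment and 13669 in the knockdown experiment, and Axin2 was dropped. Wnt9a heads the list because of its measured level in the hairpin lines, so its levels are given as a description with no test. The other 8 components were listed by name and were tested within fits over all genes. They too were chosen with earlier results of these data known, so counts of them describe the list only.

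Messenger RNA was sequenced from 15 libraries of 6DT1, a metastatic mouse mammary cancer cell line grown in monolayer. OE carried a vector expressing Myc-tagged Smarcd1 and EV the empty vector, and both were under blasticidin. KD4 and KD6 each carried 1 lentiviral hairpin against Smarcd1 and shScr a scrambled hairpin, and all of these were under puromycin. Each line gave 3 libraries, taken from separate passages 24 h after seeding at 70% confluence, so the p values measure the spread between passages of 1 line and not between independently made lines. Values are CPM, reads of a gene scaled to the library total. Read totals are unknown, and the tables list no gene whose geometric mean over their libraries falls under 1.00 CPM.

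Smarcd1, a subunit of BAF chromatin remodelling complexes, stood at 65.7 ± 4.40 CPM in OE and 29.6 ± 2.37 CPM in EV (SD, n = 3 each). It stood at 9.13 ± 0.121 CPM in KD4 and 14.4 ± 1.03 CPM in KD6, against 15.3 ± 1.01 CPM in shScr. KD6 therefore names a line whose Smarcd1 mRNA, at 93.6% of shScr, overlapped that of its control, and KD4 and KD6 were kept apart. The paper shows Smarcd1 protein of its hairpin lines by western blot, and protein was not measured here. One library, EV replicate 1, was separated from the rest of its table, at 23.7 on a first principal component where they lay between -11.3 and -1.07. Of 6 epithelial markers the keratins Krt8, Krt18 and Krt19 were listed in both gene tables, while Krt7, Epcam and Cdh1 were not, and of 3 mesenchymal markers Vim and Fn1 were listed and Cdh2 was not. Krt19 had 11.9 to 13.5 CPM in KD4 and 16.6 to 21.2 CPM in KD6, against 21.5 to 23.2 CPM in shScr. Vim had 1910 to 2171 CPM in KD4 and 1818 to 2000 CPM in KD6, against 1705 to 1776 CPM in shScr. Neither hairpin line overlapped shScr for these genes, beside 29.5% of all genes without overlap in KD4 and 22.2% in KD6. Krt18 had 355 to 444 CPM in KD4 and 340.3 to 417 CPM in KD6, against 294 to 336 CPM in shScr, again without overlap, whereas Krt8 and Fn1 overlapped. Of 6 fibroblast markers only Pdgfra was listed, with 7.12 to 7.75 CPM in KD4, 4.42 to 5.11 CPM in KD6 and 2.54 to 3.55 CPM in shScr. Acta2 of 5 basal or myoepithelial markers and Kdr of 4 endothelial markers were listed in the OE and EV table only, with 0.854 to 2.19 CPM and 0.880 to 1.84 CPM over both lines. Of 5 immune markers only Cd68 was listed, with 27.4 to 35.1 CPM in KD4, 30.3 to 49.7 CPM in KD6 and 32.3 to 38.7 CPM in shScr. In the other table Cd68 had 46.8 to 68.8 CPM in OE and 62.0 to 63.5 CPM in EV, above shScr. EV also lay above shScr for Krt18, at 348 to 407 CPM, and overlapped it for Krt8, Krt19, Vim, Fn1 and Pdgfra. The part of these marker differences or of other cell types in the results below was not tested, and in bulk RNA fewer cells of a type and less RNA per cell cannot be told apart.

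Wnt proteins are secreted lipid-modified ligands that bind Frizzled receptors together with the co-receptors Lrp5 or Lrp6. In the absence of ligand, a complex of Axin, Apc and Gsk3b marks beta-catenin, the product of Ctnnb1, for destruction. Ligand binding halts this, and beta-catenin then joins TCF/LEF factors such as Tcf7l2 on DNA. The pathway is a known driver of mouse mammary tumours, and Axin2 is one of its widely used target genes.

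Wnt9a, a ligand known for its part in joint formation, and Fzd7, a Frizzled receptor of the canonical pathway, were the components whose levels in KD4 lay furthest from those in shScr. The 250 bases before their annotated starts (RefSeq, GRCm38.p6) are shown because the last step of the pathway is a factor that binds DNA. The Wnt9a window is chr11:59306680-59306929 and the Fzd7 window chr1:59481897-59482146, both on the plus strand and both upstream of the first exon. Capitals mark any match to the TCF/LEF motif, searched on both strands as CTTTG followed by A or T at each of the next 2 positions.
Wnt9a: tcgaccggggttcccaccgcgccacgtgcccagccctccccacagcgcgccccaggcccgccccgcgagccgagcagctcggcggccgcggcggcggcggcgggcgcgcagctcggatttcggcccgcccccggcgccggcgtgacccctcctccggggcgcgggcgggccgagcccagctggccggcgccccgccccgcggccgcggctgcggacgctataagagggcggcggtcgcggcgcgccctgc
Fzd7: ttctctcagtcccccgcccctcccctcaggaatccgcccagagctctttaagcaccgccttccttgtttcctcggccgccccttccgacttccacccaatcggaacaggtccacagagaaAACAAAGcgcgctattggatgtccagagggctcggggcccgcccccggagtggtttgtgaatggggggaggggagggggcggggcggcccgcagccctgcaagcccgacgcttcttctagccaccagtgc
The Wnt9a window held no match and had a GC content of 84.4%. The Fzd7 window held 1 match, the reverse complement of CTTTGTT, and had a GC content of 65.2%. Of 32851 windows of the same length in the annotation, 4874 (14.8%) held a match, and a match describes the letters only. The windows of Ctnnb1, Gsk3b and Axin2 held no match, while of 2 Tcf7l2 windows 1 held a match (chr19:55895071-55895320). Lrp5, Lrp6, Axin1 and Apc were not searched.

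Wnt9a (ENSMUSG00000000126) differed between the hairpin lines. Its level was 5.05, 5.05 and 5.40 CPM in the KD4 libraries, against 1.19, 1.38 and 2.03 CPM in the shScr libraries. The KD4 libraries lay close together and all lay above every other library of the series. The KD6 libraries held 0.941, 1.07 and 0.596 CPM, all below the lowest shScr library. The means were 5.17 ± 0.202 CPM in KD4, 0.869 ± 0.245 CPM in KD6 and 1.53 ± 0.442 CPM in shScr (SD, n = 3 each). The KD4 mean was thus 3.37 times the shScr mean, and the KD6 mean was 56.7% of it.

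On the log2(CPM + 1) scale used throughout, which understates the change of low genes, Wnt9a stood 1.30 higher in KD4 than in shScr while the difference for KD6 against shScr was -0.43. KD6 minus KD4 was -1.73, so the hairpin lines lay on opposite sides of their control. Joining KD4 and KD6 into 1 knockdown group of 6 gave 3.02 ± 2.36 CPM, a range of 0.596 to 5.40 CPM that spanned all shScr libraries. In the overexpression experiment Wnt9a held 1.71, 1.78 and 1.44 CPM in OE, against 1.72, 1.26 and 1.77 CPM in EV, and the lines overlapped with a difference of 0.04. Across the lines the order of means was KD4, OE, EV, shScr and KD6. OE, EV and shScr, neighbours in that order, did not differ beyond their spread, though OE and EV come from another table. Both tables had a median gene-to-transcript ratio between 0.9999 and 1.0 in genes with a single transcript. Between 52.6% and 53.6% of these genes lay within 0.001 of that median in a library. Wnt9a has no listed transcript, so its own scale was not compared.

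**Figure D1:**
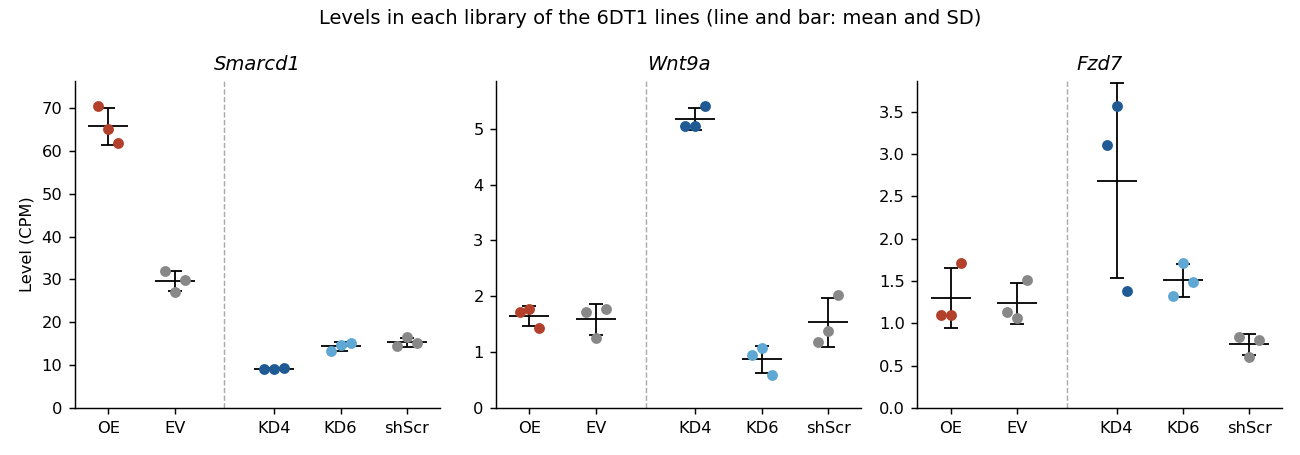
Level in CPM (linear axes from 0) of Smarcd1, Wnt9a and Fzd7 in each library (points) of the OE, EV, KD4, KD6 and shScr lines, with the mean and SD over 3 libraries (black); the dashed line separates the overexpression and knockdown tables. KD4 holds the lowest Smarcd1 mean (9.13 CPM) and the highest Wnt9a (5.17 CPM) and Fzd7 (2.69 CPM) means, and KD4 replicate 3 lies apart from the other KD4 libraries for Fzd7 (1.38 CPM).

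The 5 genes below had profiles most like that of Wnt9a over the 9 libraries of the hairpin lines, out of 9502 genes with a symbol and a mean of at least 3 CPM. They were Ifngr2 (Pearson r = 0.987), a subunit of the interferon gamma receptor, Socs3 (r = 0.973), an inhibitor of cytokine signalling, Irf1 (r = 0.97), an interferon-regulated transcription factor, Cdon (r = 0.97), a cell-surface co-receptor for Hedgehog, and Srxn1 (r = 0.963), an antioxidant enzyme. The libraries share 3 lines, so these values mostly record the order of the line means. Ifngr2, for example, stood at 13.8 ± 0.856 CPM in KD4 and 8.72 ± 0.135 CPM in KD6, against 9.87 ± 0.786 CPM in shScr. The order of the line means was the same for Irf1, with 34.1 ± 0.274 CPM in KD4 and 24.7 ± 1.19 CPM in KD6, against 28.5 ± 1.07 CPM in shScr.

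Among the 8 other components Fzd7 alone passed the test in KD4. Fzd7 (ENSMUSG00000041075) held 3.11, 3.57 and 1.38 CPM in KD4, against 0.837, 0.606 and 0.807 CPM in shScr. All KD4 libraries lay above all shScr libraries, with KD4 replicate 3 the nearest to them. It rose by 1.02 on the log2 scale (SE 0.21, limma adjusted p = 0.0126), and the ratio of mean CPM was 3.58. This was 1 of 8 components, beside 9.58% of all genes called in KD4 against shScr. The call ended without KD4 replicate 2 (limma adjusted p = 0.0513) or shScr replicate 2 (adjusted p = 0.0532), and Fzd7 lies close to the level below which genes were not listed.

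KD6 held 1.33, 1.71 and 1.49 CPM of Fzd7, again all above the shScr libraries. The log2 difference of 0.52 did not pass (95% interval 0.06 to 0.98, limma adjusted p = 0.258), and none of the 8 components was called in KD6 against shScr, where 2.91% of all genes were. The difference between the hairpin lines, KD6 minus KD4, was -0.50 (limma adjusted p = 0.236), with 0 of 8 components called beside 4.91% of all genes. Without KD4 replicate 3 Fzd7 passed in both of these comparisons, with limma adjusted p values of 0.0417 against shScr and 0.00845 against KD4. For both hairpin lines as 1 group the difference from shScr was 0.77 (limma adjusted p = 0.0925), and 0 of 8 components were called beside 2.66% of all genes. OE held 1.10, 1.10 and 1.71 CPM of Fzd7, against 1.14, 1.06 and 1.52 CPM in EV, and the lines overlapped (log2 difference 0.04, adjusted p = 0.938). All of these OE and EV libraries lay above every shScr library. OE and EV come from another table, but the single Fzd7 transcript repeats these levels where all 15 libraries stand together. There EV minus shScr was 0.35 and did not pass (limma adjusted p = 0.256). Of all transcripts, 14.4% had every EV library above every shScr library.

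The co-receptors Lrp5 and Lrp6 did not pass in either hairpin line. Lrp5 held 289, 214 and 159 CPM in KD4 and 193, 260 and 229 CPM in KD6, against 229, 191 and 269 CPM in shScr. These libraries overlapped fully, and KD4 spread more widely than either other line. The log2 difference was -0.08 in KD4 (95% interval -0.52 to 0.35, limma adjusted p = 0.836) and -0.01 in KD6 (-0.45 to 0.42, adjusted p = 0.989). Lrp6 held 201, 209 and 179 CPM in KD4 and 179, 205 and 216 CPM in KD6, against 209, 197 and 200 CPM in shScr, with log2 differences of -0.04 and -0.02. The 95% intervals for Lrp6 reached from -0.23 to 0.14 in KD4 and from -0.20 to 0.17 in KD6, so its difference was bounded more tightly than that of Lrp5.

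Of the destruction complex, Apc was the component whose libraries separated in KD4. Apc, a tumour suppressor that binds beta-catenin, held 120, 120 and 115 CPM in KD4, against 141, 130 and 133 CPM in shScr. Every KD4 library lay below every shScr library, but the log2 difference of -0.18 did not pass (SE 0.07, limma adjusted p = 0.111). In KD6 Apc held 125, 138 and 139 CPM and overlapped shScr (log2 difference -0.01). Axin1, the scaffold of the complex, held 80.0, 75.6 and 68.2 CPM in KD4 and 66.6, 73.3 and 66.2 CPM in KD6, against 69.8, 70.6 and 80.4 CPM in shScr. The Axin1 libraries overlapped in both comparisons, with log2 differences of 0.02 in KD4 and -0.10 in KD6. Gsk3b, the kinase that phosphorylates beta-catenin, held 164, 136 and 112 CPM in KD4 and 121, 161 and 149 CPM in KD6, against 148, 130 and 152 CPM in shScr. Its differences were -0.07 in KD4 (limma adjusted p = 0.789) and 0.00 in KD6 (adjusted p = 1.0).

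Ctnnb1, which encodes beta-catenin, held 367, 374 and 397 CPM in KD4, against 348, 358 and 352 CPM in shScr. The KD4 libraries lay above those of shScr, yet the log2 difference was 0.10 (SE 0.07, limma adjusted p = 0.427). KD6 held 376, 344 and 314 CPM and overlapped shScr (log2 difference -0.04, adjusted p = 0.886). Tcf7l2, the TCF factor of the list, held 15.3, 14.1 and 9.04 CPM in KD4 and 9.84, 14.1 and 11.8 CPM in KD6, against 9.24, 11.1 and 12.6 CPM in shScr. Its differences of 0.19 and 0.11 had limma adjusted p values of 0.588 and 0.867. Counting Fzd7, Apc and Ctnnb1, 3 of the 8 components separated KD4 from shScr without overlap, beside 29.5% of all genes, and 1 of 8 separated KD6 from shScr, beside 22.2%.

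**Figure D2:**
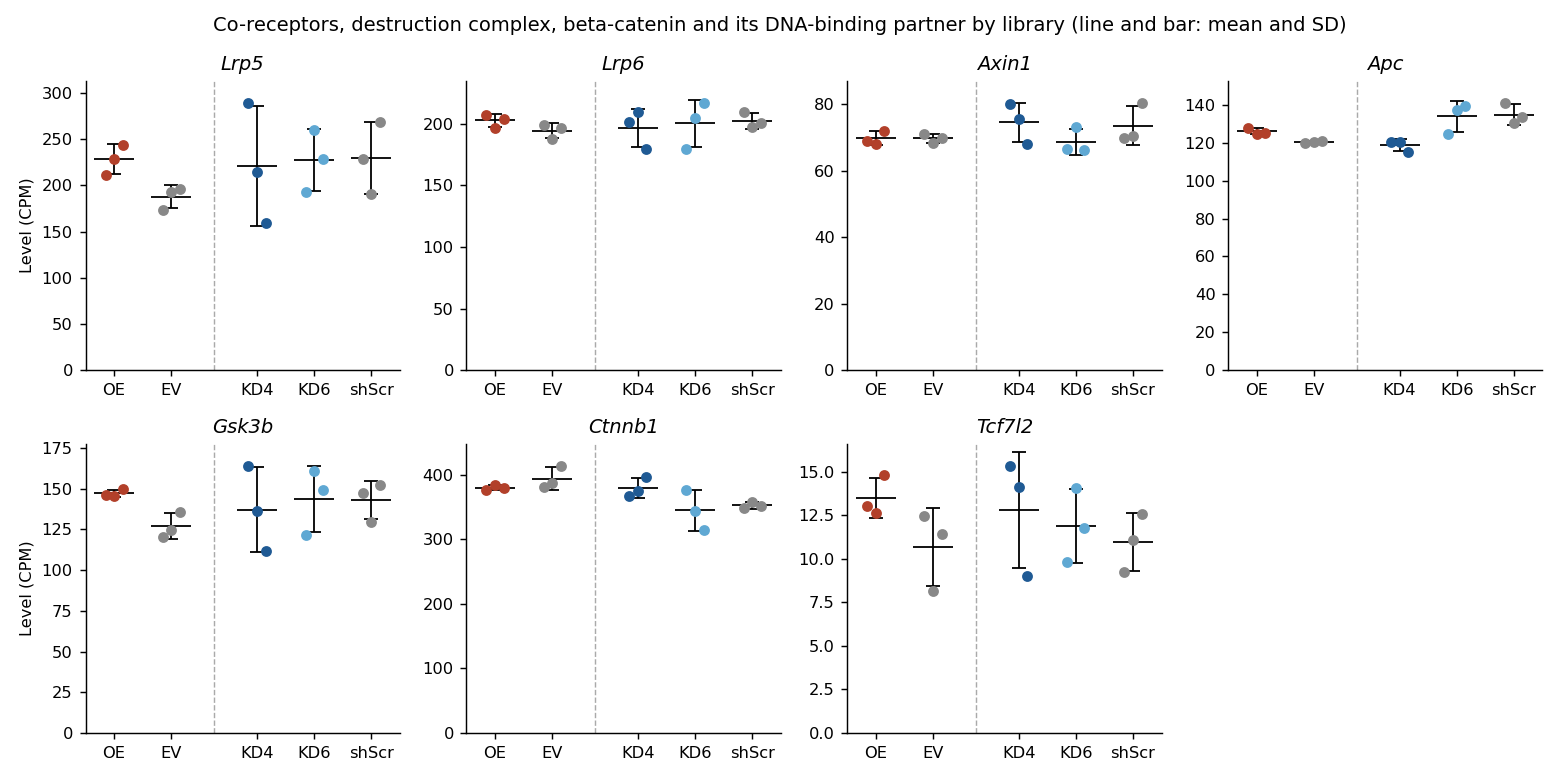
Level in CPM (linear axes from 0) of Lrp5, Lrp6, Axin1, Apc, Gsk3b, Ctnnb1 and Tcf7l2 in each library (points), with the mean and SD over 3 libraries (black), for OE and EV left of the dashed line and KD4, KD6 and shScr right of it. The OE libraries of Lrp5, Apc, Gsk3b and Tcf7l2 lie above those of EV, the KD4 libraries of Apc lie below those of shScr, and no difference shown passed the test.

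KD4 replicate 3 had the lowest KD4 level of 7 of the 9 components, Fzd7, Lrp5, Lrp6, Axin1, Apc, Gsk3b and Tcf7l2. It had the highest level of Wnt9a and Ctnnb1. Over all genes KD4 replicate 3 was the lowest KD4 library for 39.8% and the highest for 33.3%. Lrp5 and Gsk3b had the same order of libraries in all 3 hairpin-table lines, which 553 of 13669 genes (4.05%) shared with Lrp5.

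In the overexpression experiment the components were compared between OE and EV, and none was called. Only 1 gene of the table was, or 0.00741% of all genes. Lrp5 held 212, 229 and 244 CPM in OE, against 174, 193 and 196 CPM in EV, and all OE libraries lay above all EV libraries. The log2 difference was 0.28 (95% interval 0.12 to 0.43, limma adjusted p = 0.222). Gsk3b held 146, 146 and 150 CPM in OE, against 120, 125 and 136 CPM in EV, without overlap (log2 difference 0.21, adjusted p = 0.228). Tcf7l2 held 13.05, 12.7 and 14.8 CPM in OE, against 12.5, 8.16 and 11.4 CPM in EV, also without overlap (log2 difference 0.33, adjusted p = 0.381). Apc held 128, 125 and 125 CPM in OE, against 120, 120 and 121 CPM in EV (log2 difference 0.06, adjusted p = 0.516).

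These 4 of 8 components were all that separated OE from EV, all with OE above, beside 20% of all genes separated in either direction and 11.3% with OE above. Lrp6 held 207, 197 and 204 CPM in OE, against 199, 187 and 196 CPM in EV (log2 difference 0.06). Axin1 held 69.1, 68.2 and 72.2 CPM in OE, against 71.1, 68.5 and 69.9 CPM in EV (log2 difference 0.00). Ctnnb1 held 376, 384 and 380 CPM in OE, against 380, 388 and 414 CPM in EV (log2 difference -0.05, limma adjusted p = 0.674). For these genes the libraries of the lines overlapped. EV replicate 1, which stood apart, held the lowest EV level of Lrp5, Gsk3b, Apc and Ctnnb1 but the highest of Axin1, Lrp6 and Tcf7l2. Without it no component was called in OE either, and the Lrp5 difference was 0.225 (limma adjusted p = 0.321).

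The pathway around these components was described with a list of 120 genes grouped by role, chosen with earlier results of these data known. Beside Wnt9a, 65 of them were measured in the overexpression table and 66 in the knockdown table. In KD4 12 of the 66 passed against shScr, 11 higher and 1 lower, which is 18.2% beside 9.58% of all genes. The median log2 difference over the 66 was 0.09, beside 0.001 over all genes. In KD6 5 of the 66 passed, 4 higher and 1 lower (7.58%, beside 2.91% of all genes), with a median of 0.02. Both comparisons use the same shScr libraries, against which Krt18, Krt19, Vim and Pdgfra also separated both hairpin lines. Of all genes, 29.5% separated KD4 from shScr and 22.2% separated KD6, and the part of those markers was not tested. The KD4 count was 4 without KD4 replicate 2, 5 without shScr replicate 1 and 7 without shScr replicate 2. In those fits 683, 704 and 641 of all 13669 genes were called, beside 1310 in the full KD4 fit. The KD6 count was 0 without KD6 replicate 1, KD6 replicate 2, shScr replicate 1 or shScr replicate 2. It was 1 without shScr replicate 3, and 2 without KD4 replicate 2 or KD6 replicate 3. Over all genes those fits gave 172, 151, 179, 153, 191, 300 and 288 calls in that order, beside 398 in the full fit. In KD4 the calls of Wnt7b, Vangl1 and Tle2 held without any 1 library, and the other 9 calls all ended without KD4 replicate 2.

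Among 4 other ligands measured, Wnt7b rose in both hairpin lines. Wnt7b, a ligand with roles in lung and kidney development, held 52.9, 58.6 and 70.7 CPM in KD4 and 46.6, 44.9 and 40.3 CPM in KD6, against 25.4, 28.8 and 34.1 CPM in shScr. No library of either hairpin line overlapped shScr, and KD6 lay between KD4 and shScr. The log2 changes were 1.02 in KD4 (SE 0.12, limma adjusted p = 0.000795) and 0.57 in KD6 (adjusted p = 0.0364). Wnt7b held 67.8, 64.9 and 54.3 CPM in OE, against 67.2, 58.0 and 54.2 CPM in EV. The EV control thus lay above the shScr control as well, beside 14.4% of all transcripts, though EV comes from another table. The ligand Wnt5b did not pass against shScr in either line but was 0.58 higher in KD6 than in KD4 (limma adjusted p = 0.031), with 4.12 ± 0.492 CPM in KD6 and 2.42 ± 0.303 CPM in KD4.

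Of 10 receptors and co-receptors, 3 rose in KD4, beside 9.58% of all genes called, and none passed in KD6, beside 2.91%. Beside Fzd7 these were the Frizzled receptors Fzd2 and Fzd4. Fzd2 held 9.002, 6.48 and 4.74 CPM in KD4, against 1.95, 3.49 and 3.36 CPM in shScr (log2 change 0.97, limma adjusted p = 0.0158). Fzd4 held 1.80, 1.75 and 1.64 CPM in KD4, against 0.938, 0.915 and 1.07 CPM in shScr (log2 change 0.47, adjusted p = 0.0166). All KD4 libraries of both genes lay above those of shScr. Fzd4 held 2.03 to 2.37 CPM in EV and 1.785 to 2.375 CPM in OE, so both vector lines lay above shScr as well. Of all transcripts, 14.4% had EV above shScr. Fzd2 overlapped shScr in both OE and EV. Lgr4, the R-spondin receptor, rose by 0.38 in KD4 (adjusted p = 0.0424), with 20.9 ± 2.37 CPM against 15.7 ± 1.16 CPM in shScr.

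Of 19 genes of the cytoplasmic relay and destruction complex none passed in KD4, with a median log2 difference of 0.02. In KD6 1 of the 19 passed, beside 2.91% of all genes. Csnk1g1, a casein kinase of the family that phosphorylates Lrp6, held 54.1, 65.1 and 66.4 CPM in KD6, against 91.2, 84.4 and 86.6 CPM in shScr. It fell by 0.50 on the log2 scale (limma adjusted p = 0.0189), and KD6 minus KD4 was -0.43 (adjusted p = 0.024). In KD4 Csnk1g1 held 91.9, 83.5 and 76.0 CPM and overlapped shScr.

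Of 14 nuclear effectors 5 passed in KD4, 4 higher and 1 lower, beside 9.58% of all genes called. The 5 include activators and inhibitors of the pathway. Pygo2, a co-activator that reads histone methylation, rose by 0.40 in KD4 (limma adjusted p = 0.0173) and by 0.38 in KD6 (adjusted p = 0.0425). It held 40.1 ± 1.17 CPM in KD4 and 39.7 ± 1.45 CPM in KD6, against 30.4 ± 3.51 CPM in shScr. OE held 43.4 ± 2.38 CPM and EV 40.7 ± 1.21 CPM of Pygo2, so both vector lines lay above shScr as well. Ctnnbip1, an inhibitor that blocks beta-catenin from TCF, rose by 0.48 in KD4 (adjusted p = 0.0157) and by 0.45 in KD6 (adjusted p = 0.0416). Cby1, another beta-catenin antagonist, rose by 0.47 in KD4 (adjusted p = 0.0371). The EV libraries of Ctnnbip1, at 12.7 to 15.3 CPM, also lay above shScr, at 10.25 to 12.3 CPM. Those of Cby1, at 12.8 to 15.9 CPM, lay above shScr at 9.60 to 12.2 CPM. Among the Groucho-type co-repressors, Tle4 rose by 0.38 in KD4 (adjusted p = 0.0465) and Tle2 fell. The Tle4 call held in 4 of 14 alternative settings, and the EV libraries of Tle4 lay below those of shScr. Of all transcripts, 35.2% separated EV from shScr, 14.4% with EV above. Tle2 held 1.08, 1.54 and 0.881 CPM in KD4, against 2.74, 2.77 and 2.60 CPM in shScr (log2 change -0.79, limma adjusted p = 0.00425). Its KD6 libraries, at 1.42, 1.91 and 1.63 CPM, were also below shScr. So were the OE libraries of Tle2, at 1.57 to 2.47 CPM, while those of EV, at 1.40 to 2.81 CPM, overlapped shScr.

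Of 5 genes of planar cell polarity, a branch that does not use beta-catenin, 2 rose in KD4, beside 9.58% of all genes called. Vangl1, a membrane component of that branch, held 37.4, 35.2 and 37.1 CPM in KD4 and 30.6, 30.3 and 29.7 CPM in KD6, against 26.5, 26.9 and 27.1 CPM in shScr. The Vangl1 change was 0.43 in KD4 (limma adjusted p = 0.00216), and the value for KD6 was 0.27 below that for KD4 (-0.27, adjusted p = 0.0348). OE held 29.4 to 33.7 CPM of Vangl1, all above shScr, while EV, at 26.6 to 30.9 CPM, overlapped shScr. Celsr1, an atypical cadherin, rose by 0.66 (adjusted p = 0.046), although KD4 replicate 3 at 34.1 CPM lay below shScr replicate 3 at 34.6 CPM. The Celsr1 call held in 6 of 14 alternative settings.

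**Figure D3:**
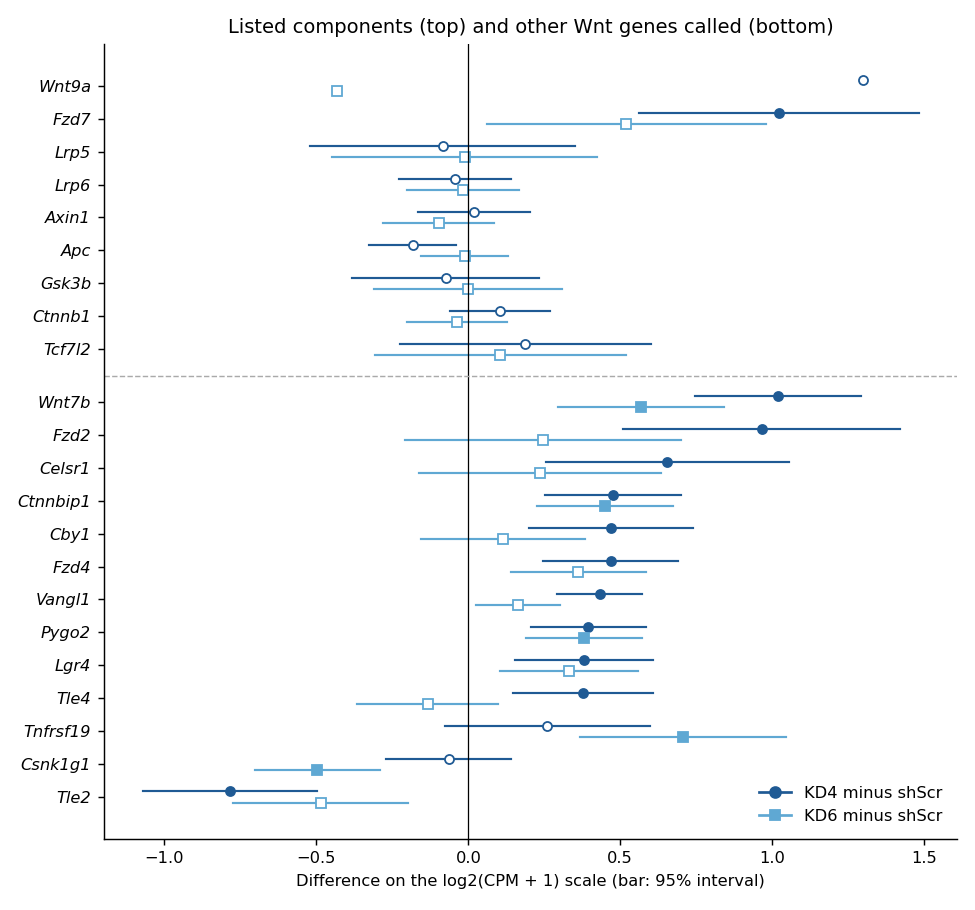
Difference on the log2(CPM + 1) scale from shScr for KD4 (circles) and KD6 (squares), with 95% intervals, for the listed components (above the dashed line) and the other Wnt genes called in either line (below it). Filled symbols passed at an adjusted p under 0.05; Wnt9a is drawn with no interval because it was not tested, at 1.30 in KD4 and -0.43 in KD6.

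Known transcriptional targets of the pathway were measured for 10 of 21 listed genes, of which Tcf7, Znrf3, Notum and Apcdd1 also stand in another group of the list. None of the 10 passed in KD4, beside 9.58% of all genes called, and their median log2 difference was 0.06. The median in KD6 was 0.01, and 1 gene passed, beside 2.91% of all genes. Tnfrsf19, a TNF receptor family member, held 4.93, 4.33 and 4.37 CPM in KD6, against 2.14, 2.56 and 2.50 CPM in shScr (log2 change 0.71, limma adjusted p = 0.0356). It held 3.49 to 5.55 CPM in EV and 4.09 to 4.96 CPM in OE, so both vector lines lay above shScr as well. Of all transcripts, 14.4% had EV above shScr. Ccnd1, the cyclin of the early cell cycle, held 425, 403 and 424 CPM in KD4, against 412, 414 and 410 CPM in shScr (log2 difference 0.02, adjusted p = 0.893). Myc, a growth regulator, had a log2 difference of -0.27 in KD4 (adjusted p = 0.192) and 0.00 in KD6 (adjusted p = 0.995). Znrf3 held 28.1 to 38.3 CPM in KD4 and 29.3 to 35.7 CPM in KD6, against 38.9 to 41.5 CPM in shScr. Both hairpin lines lay below shScr for Znrf3, and neither difference passed. Of the 10 targets, 1 separated KD4 from shScr, beside 29.5% of all genes. In KD6 4 separated from shScr, 3 above and 1 below, beside 22.2% of all genes.

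With KD4 and KD6 as 1 group of 6, 5 of the 66 pathway genes passed against shScr (7.58%, beside 2.66% of all genes), and all of them had passed in KD4 alone. Wnt7b (0.79), Fzd4 (0.42), Pygo2 (0.39) and Ctnnbip1 (0.46) rose and Tle2 fell by 0.64. The EV libraries of Wnt7b, Fzd4, Pygo2 and Ctnnbip1 also lay above those of shScr, though EV comes from another table. Those of Tle2 overlapped shScr, while all OE libraries of Tle2 lay below it. Of all transcripts, 35.2% separated EV from shScr, 14.4% with EV above. KD6 against KD4 gave 4 calls of 66 (6.06%, beside 4.91% of all genes), Wnt5b, Csnk1g1, Tle4 and Vangl1, with Tle4 0.51 lower in KD6 (-0.51, limma adjusted p = 0.0187). The pooled count was 3 without KD4 replicate 1, 1 without KD4 replicate 2 and 0 without any 1 of the shScr replicates. Over all genes the calls were 270, 181 and, without shScr replicates 1 to 3, 102, 92 and 92, beside 364 in the full fit. The count for KD6 against KD4 was 0 without KD6 replicate 1. It was 1 without KD4 replicate 1, KD4 replicate 2, KD6 replicate 2 or KD6 replicate 3. These fits called 488, 465, 405, 298 and 396 of all genes in that order, beside 671 in the full fit.

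In OE none of the 65 pathway genes passed against EV. At an unadjusted limma p under 0.05 there were 11, all higher in OE, beside 13% of all genes. The OE libraries lay above all EV libraries for 14 and below them for 0 of the 65, beside 11.3% of all genes with OE above and 20% separated in either direction. These 14 are Lrp5, Apc, Gsk3b, Tcf7l2, Dvl3, Csnk1d, Csnk1g1, Btrc, Tnks, Bcl9, Bcl9l, Pygo2, Tle1 and Tle4, named after their values were seen. The largest differences among them were for the beta-catenin co-activators Bcl9l (0.36, limma adjusted p = 0.281) and Bcl9 (0.36, adjusted p = 0.283), and the median over the 65 was 0.06, beside 0.011 over all genes.

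**Figure D4:**
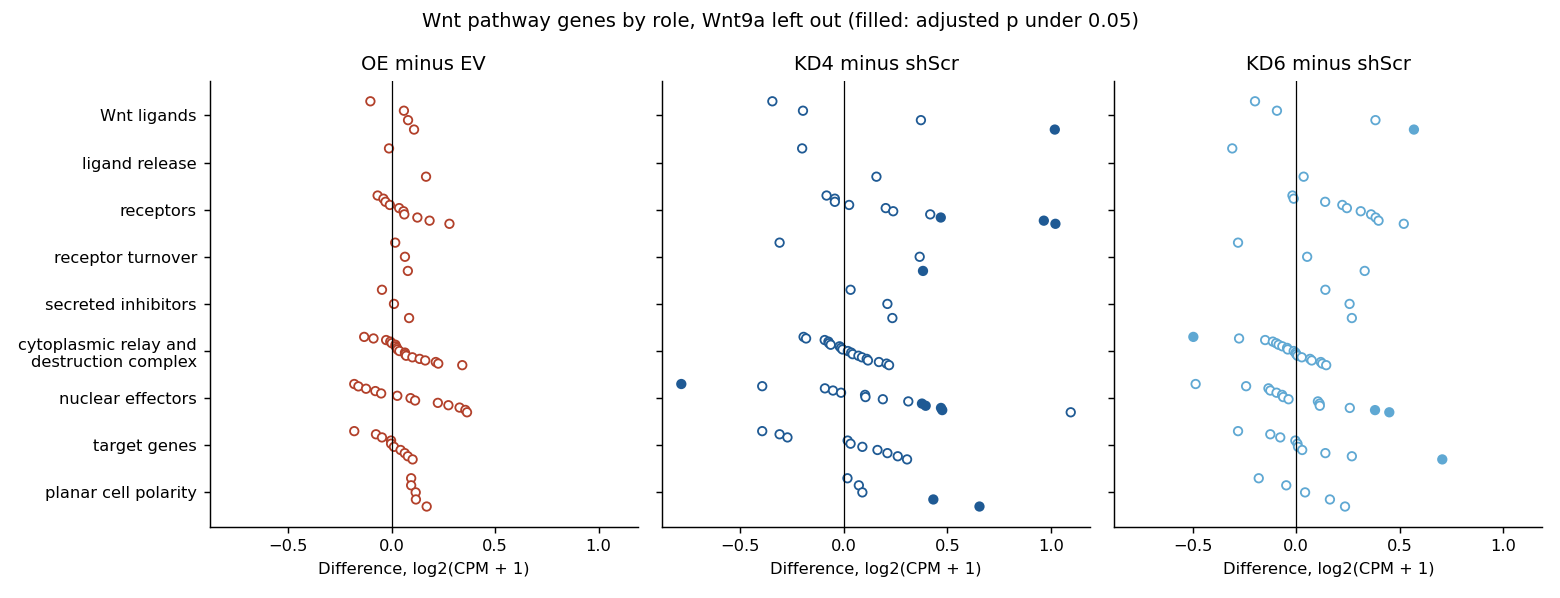
Difference on the log2(CPM + 1) scale for each Wnt pathway gene (circles) by role, with Wnt9a left out, for OE minus EV, KD4 minus shScr and KD6 minus shScr. Filled circles passed at an adjusted p under 0.05: none in OE, 12 genes in KD4 and 5 in KD6, and some genes stand in more than 1 role.

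The transcript table held 30 transcripts of 8 components and none of Wnt9a, with all 15 libraries together. Fzd7 had 1 transcript, which repeats the gene's values and was again called in KD4 (log2 change 1.02, limma adjusted p = 0.0142). This was 1 of 30 in KD4, beside 3.62% of all transcripts, and 0 of 30 without KD4 replicate 1, KD4 replicate 2 or shScr replicate 2. None of the 30 was called in KD6, beside 0.979%, or in OE against EV, beside 0%. Between the control lines EV and shScr, which differ in vector and drug, 1 of 30 passed, beside 9.1% of all transcripts, and 2 passed without EV replicate 3, KD4 replicate 3, KD6 replicate 1, KD6 replicate 3 or shScr replicate 1. That was the Apc transcript ENSMUST00000171187, with 1.495, 1.86 and 1.73 CPM in EV, against 3.80, 5.70 and 4.83 CPM in shScr (log2 change -1.09, adjusted p = 0.00167). The same transcript held 4.07, 3.23 and 2.99 CPM in OE, all above EV (log2 difference 0.71, adjusted p = 0.71), and made up 2.78% of the summed Apc transcripts in OE, 1.45% in EV and 3.62% in shScr. The main Apc transcript, ENSMUST00000115781, made up between 59.9% and 65.3% in the 5 lines. Reads shared between transcripts of 1 gene could be split differently by another counting method, so single transcripts are less certain than genes. The Tcf7l2 transcript ENSMUST00000111662 was higher in all KD6 libraries, with 2.01 CPM on average against 0.652 CPM in shScr, and did not pass (log2 difference 0.85, adjusted p = 0.238).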

How the data were processed

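The deposited values are CPM that the authors calculated from fractional read counts. STAR 2.7.8a and mm39 stand in the submitters' processing notes but Tophat and an earlier mouse build in the study's methods. How the values were made is therefore open, and coordinates from the files were not used. CPM held no whole-read steps, so depth is unknown and no counting interval was computed. The transcript table has 15 further columns whose names match no sample label exactly, and these were not used. Symbols were matched for 88.1% and 87.3% of genes.

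CPM were transformed to log2(CPM + 1) and fitted with limma 3.58.1 (R 4.3.3) with an intensity trend, with Benjamini-Hochberg adjustment over every gene or transcript fitted and a call at an adjusted p under 0.05. OE was compared with EV (3 against 3); KD4, KD6 and shScr were fitted as 3 groups; KD4 and KD6 were also joined as 6 libraries against 3; and transcripts were fitted over 5 lines. Scripts were tested on simulated data with 200 changed features. The transcript and gene tables were compared for scale in genes with a single transcript.

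The components, the 120-gene list and the tests were chosen with earlier results of these data known. Named genes were every component, every gene of the list called in a comparison (up to 12 in each direction), Smarcd1, and the 5 genes with the highest correlation with Wnt9a. Cell type markers came from a list of their own, and Ccnd1, Myc, Znrf3 and the transcripts named were chosen after their values were seen. Alternatives were a pseudocount of 0.1, quantile normalization, scaling by the median of ratios, a minimum mean of 5 CPM, a replicate block and leaving out each library. Figures used matplotlib 3.10.9 in Python 3.11.15.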

Additional observations from a re-analysis of the deposited data

Results flagged for a closer look

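Wnt9a was 1.73 lower in KD6 than in KD4 on the log2(CPM + 1) scale (-1.73), with every KD4 library above and every KD6 library below the shScr libraries, and this difference was not tested. The lines also differed in the targeted gene, as Smarcd1 was 0.60 higher in KD6 than in KD4 (limma adjusted p = 0.00292). Among the other pathway genes the same comparison passed for 4 of 66 (6.06%, beside 4.91% of all genes), which were Wnt5b (0.58, limma adjusted p = 0.031), Csnk1g1 (-0.43, adjusted p = 0.024), Tle4 (-0.51, adjusted p = 0.0187) and Vangl1 (-0.27, adjusted p = 0.0348). Smarcd1 and these 4 genes were set apart because the hairpin lines, which share a control, differed from each other in a direct test. Wnt9a was set apart because the hairpin lines lay on opposite sides of that control. The call held in 9 of 14 alternative settings for Csnk1g1, 8 of 14 for Tle4, 8 of 13 for Wnt5b and 5 of 14 for Vangl1. None of the components had a library past Dixon's limit in the group of 6 joined hairpin libraries.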

How the results depend on the processing

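Leaving out each library in turn kept 0 components called in OE against EV and in the joined knockdown group. The count of components called ranged from 0 to 1 in KD4 against shScr, KD6 against shScr and KD6 against KD4. Pathway genes called ranged from 4 to 14 in KD4 against shScr and 0 to 7 in KD6 against shScr. They ranged from 0 to 6 in KD6 against KD4 and 0 to 5 in the joined group. Over all genes the calls in the same order ranged from 641 to 1309, 151 to 419, 298 to 611 and 92 to 397. Component transcripts called ranged from 0 to 1 in KD4 and from 1 to 2 in EV against shScr.

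A minimum mean of 5 CPM removed Wnt9a and Fzd7 from the fit. This left 0 components and 0 transcripts called in KD4, and gave 3 pathway genes in the joined group. The same minimum gave 1110 calls over all 10632 genes left in KD4 and 273 in the joined group. It also removed the Apc transcript called in EV against shScr, where 1 other transcript was called instead. Both quantile normalization and scaling by the median of ratios gave 2 transcripts called in EV against shScr. Replicate numbers did not pair the libraries (correlations of same-numbered deviations from -0.149 to 0.258 in OE and EV and from -0.328 to 0.061 in the hairpin lines). With a replicate block the pathway counts were 7 in KD4, 0 in KD6, 0 in KD6 against KD4 and 0 in the joined group. Over all 13669 genes the block left 626, 179, 349 and 114 calls in the same order. The transcript count in KD4 was 0, beside 375 of all 30220 transcripts, and Fzd7 kept its call in KD4 (limma adjusted p = 0.0285). With a pseudocount of 0.1 the Wnt9a differences were 1.72 in KD4, -0.75 in KD6 and -2.48 in KD6 against KD4.

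Calls of 3 pathway genes in KD4 held in every setting in which the gene was fitted: Wnt7b and Vangl1 in 14 of 14 and Tle2 in 13 of 13. The sign of differences near 0 that were not called or, for Wnt9a, not tested depended on the setting. Fzd7 in OE against EV was -0.033 with quantile normalization. Leaving out single libraries gave these ranges: in OE Fzd7 (-0.087 to 0.124), Wnt9a (-0.057 to 0.094) and Axin1 (-0.024 to 0.017); in KD4 Axin1 (-0.033 to 0.083), Gsk3b (-0.212 to 0.065), Lrp5 (-0.299 to 0.129) and Lrp6 (-0.090 to 0.021); in KD6 Apc (-0.042 to 0.038), Ctnnb1 (-0.101 to 0.028), Gsk3b (-0.086 to 0.117), Lrp5 (-0.138 to 0.108), Lrp6 (-0.076 to 0.058) and Tcf7l2 (-0.013 to 0.225); in KD6 against KD4 Gsk3b (-0.065 to 0.212), Lrp5 (-0.141 to 0.287), Lrp6 (-0.039 to 0.102) and Tcf7l2 (-0.297 to 0.054); and in the joined group Axin1 (-0.075 to 0.025), Gsk3b (-0.106 to 0.026) and Lrp5 (-0.174 to 0.072). The cause of these changes was not tested. Unknown depth limits what can be said of Wnt9a and Fzd7, which lie near the lowest level listed.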

Other observations

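Tcf7l1, another TCF factor, had the largest log2 difference from shScr in KD4 of all 66 pathway genes tested (1.10) but did not pass (95% interval 0.20 to 2.00, limma adjusted p = 0.126). It held 5.10, 5.20 and 1.16 CPM in KD4, against 0.995, 0.578 and 1.66 CPM in shScr, so KD4 replicate 3 lay within the shScr range, and it was not listed in the OE and EV table. Wnt10b, a ligand known for mammary bud formation, held 1.88, 1.48 and 1.68 CPM in KD4, against 0.995, 1.18 and 1.03 CPM in shScr. Its KD4 libraries lay above those of shScr, and the log2 difference of 0.37 did not pass (limma adjusted p = 0.09). The receptor Ryk (0.24, adjusted p = 0.0553) and the Frizzled Fzd8 (0.42, adjusted p = 0.0865) were in the same position in KD4. These 4 genes were named after their values were seen.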
